A study of Homo sapiens with 12 samples.

Results

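A set of 53 protein-coding genes was detected only in SKOV3 cells among the 19729 named protein-coding genes of these data. Each of the 53 had at least 10 CPM (counts divided by the library's total on named genes, scaled to 1e6) in each of the 3 untreated SKOV3 libraries and 0 counts in all 6 SKOV3/DDP libraries, untreated or treated with paeonol (PAE). In all, 55 genes met these limits, and 2 of them were left out by name. The members were thus chosen by measured values, and their level in untreated SKOV3 and their zeros in SKOV3/DDP are given as a description, with no test. The PAE-treated SKOV3 libraries took no part in the choice. The members made up 0.953% of the 5561 protein-coding genes that reached 10 CPM in each untreated SKOV3 library.

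The RNA sequencing data comprised 12 libraries of 4 groups, with 3 libraries each. SKOV3 is labelled as a cisplatin-sensitive human line of epithelial ovarian cancer. SKOV3/DDP is labelled as a cisplatin-resistant line, and the methods describe it as a stable chemoresistant line developed from SKOV3. Each line was left untreated or was given PAE, a phenolic compound, for which the labels state neither dose nor time. The groups carried no other engineered allele or agent in the labels. The study's own text calls the 3 libraries of a group biological as well as experimental triplicates, so p-values measure the spread between these libraries, which may in part be technical. In bulk RNA, fewer cells that express a gene and less RNA per cell cannot be told apart.

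Lineage transcription factors such as homeobox, forkhead, GATA, SOX and TWIST proteins bind DNA and set which genes a cell type uses. Each is typically active in few tissues and silent elsewhere, and many lie in CpG-rich DNA, where silencing can be stable through cell division. Secreted factors and surface receptors are likewise used by some cell types and not by others.

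Library totals ranged from 14610008 to 18263479 counts. The 6 SKOV3/DDP libraries held 97240340 counts on named genes, and a count of 0 in them allows a level of up to 0.0309 CPM (3 counts over the 6 libraries, counting error only). Of the epithelial markers, KRT8 and KRT18 were abundant in both lines, at means of 2171 and 983 CPM in untreated SKOV3 and 5571 and 4375 CPM in untreated SKOV3/DDP. KRT19, EPCAM and CDH1 were at 5.02, 0.838 and 5.01 CPM in SKOV3 and at 1434, 304 and 461 CPM in SKOV3/DDP. Of the 6 ovarian and Müllerian markers, PAX8 (19.5 CPM) and MSLN (97.7 CPM) were detected in untreated SKOV3, MUC16 was at 1.37 CPM, and WT1, EMX2 and ESR1 were at 0. In untreated SKOV3/DDP, MSLN was higher, at 408 CPM, and PAX8 (4.39 CPM) and MUC16 (0.404 CPM) were lower. ESR1 was at 0.258 CPM there, WT1 at 0.0447 CPM and EMX2 at 0. ERBB2, for whose amplification SKOV3 is known, was at 201 CPM in SKOV3 and 103 CPM in SKOV3/DDP. The 5 intestinal markers were between 0 and 0.433 CPM in SKOV3 and between 6.96 and 356 CPM in SKOV3/DDP, with CDH17 highest and CDX2 at 175 CPM. The leukocyte marker PTPRC was at 0 in both untreated lines, the endothelial marker PECAM1 was at 2.80 and 0.939 CPM, and the highest of the 4 fibroblast markers, PDGFRB, was at 2.15 and 0.988 CPM. The part of these line differences in the members' silence was not tested. The descent of SKOV3/DDP from SKOV3 was not tested either, so detection only in SKOV3 describes these libraries as labelled.

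The untreated SKOV3 libraries also stood apart in base composition. Over 10380 genes, log2 CPM relative to the mean of the 12 libraries rose with the GC content of the gene in the 3 untreated SKOV3 libraries, with a Spearman correlation between 0.76 and 0.79. In the other 9 libraries the correlation was between −0.69 and −0.46. The members had a median GC content of 59.1% (52 with a value), and the other 5508 protein-coding genes at 10 CPM in untreated SKOV3 had 55.2%. This relation was measured across genes, which are not replicates. It bears on the comparison of untreated SKOV3 with SKOV3/DDP that chose the members. It bears equally on every comparison of the members between untreated and PAE-treated SKOV3 below.

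The members spanned a wide range of levels. Their mean in untreated SKOV3 was between 11.7 and 1121 CPM, with a median of 25.6 CPM. Per kilobase of gene length, the means lay between 0.834 and 1802 CPM, with a median of 9.47. SPINK6, a secreted inhibitor of serine proteases, was highest on both scales, followed per kilobase by the small GTPase RAB32 (134 CPM per kb), RTL8C (102) and C15orf48 (81.7). The lowest per kilobase was GPRIN2 (0.834), followed by ADD2 (1.51). The listed length of GPRIN2 (23213 bases) exceeds the span of its coordinates (46541736 to 46557596), so its value per kilobase is uncertain. The coefficient of variation over the 3 untreated libraries had a median of 11.7%, and it was largest in FBXO17 (63.3%) and RPL39L (54.1%). Set against the limit of 3 counts in SKOV3/DDP, the mean levels were at least 379-fold (KCNK15) to at least 36337-fold (SPINK6) higher in SKOV3.

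The limits of the choice cut through a continuum of levels. The 3 members with the lowest single-library values were KCNK15 (10.1 CPM), SOX18 (10.4 CPM) and CDK5R2 (10.7 CPM). Just below the limit, with 0 counts in SKOV3/DDP, were GPR27 (8.99 CPM), BEX2 (8.62 CPM) and SLC52A1 (8.44 CPM). On the side of the zeros, 17 further genes at 10 CPM or more had a single count in the 6 SKOV3/DDP libraries. The most abundant of them in untreated SKOV3 were SEC14L4 (mean 80.4 CPM), GNAO1 (66.2 CPM) and RUNX3 (63.2 CPM). With the lines exchanged, 46 genes had at least 10 CPM in each untreated SKOV3/DDP library and 0 counts in all 6 SKOV3 libraries.

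The 3 PAE-treated SKOV3 libraries give a second measurement of the members in the same line. All 53 had counts in each of these libraries, the lowest being 11 counts of RAMP1 (0.713 CPM) in replicate 3. Of the 53, 52 reached 1 CPM, 37 reached 5 CPM and 30 reached 10 CPM in each PAE-treated library, and the last number is 56.6% of the members. Of the other 5508 genes at 10 CPM in untreated SKOV3, 88.8% did so, from a higher median level (62.1 CPM, against 25.6 CPM for the members). The mean level of every member in PAE-treated SKOV3 was at least 72.3-fold above the SKOV3/DDP limit. The ratio of the mean CPM in PAE-treated to that in untreated SKOV3 had a median of 0.473 over the members and 0.620 over the other genes, and it was above 1 in 10 members (18.9%) and in 36.5% of the other genes.

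**Figure D1:**
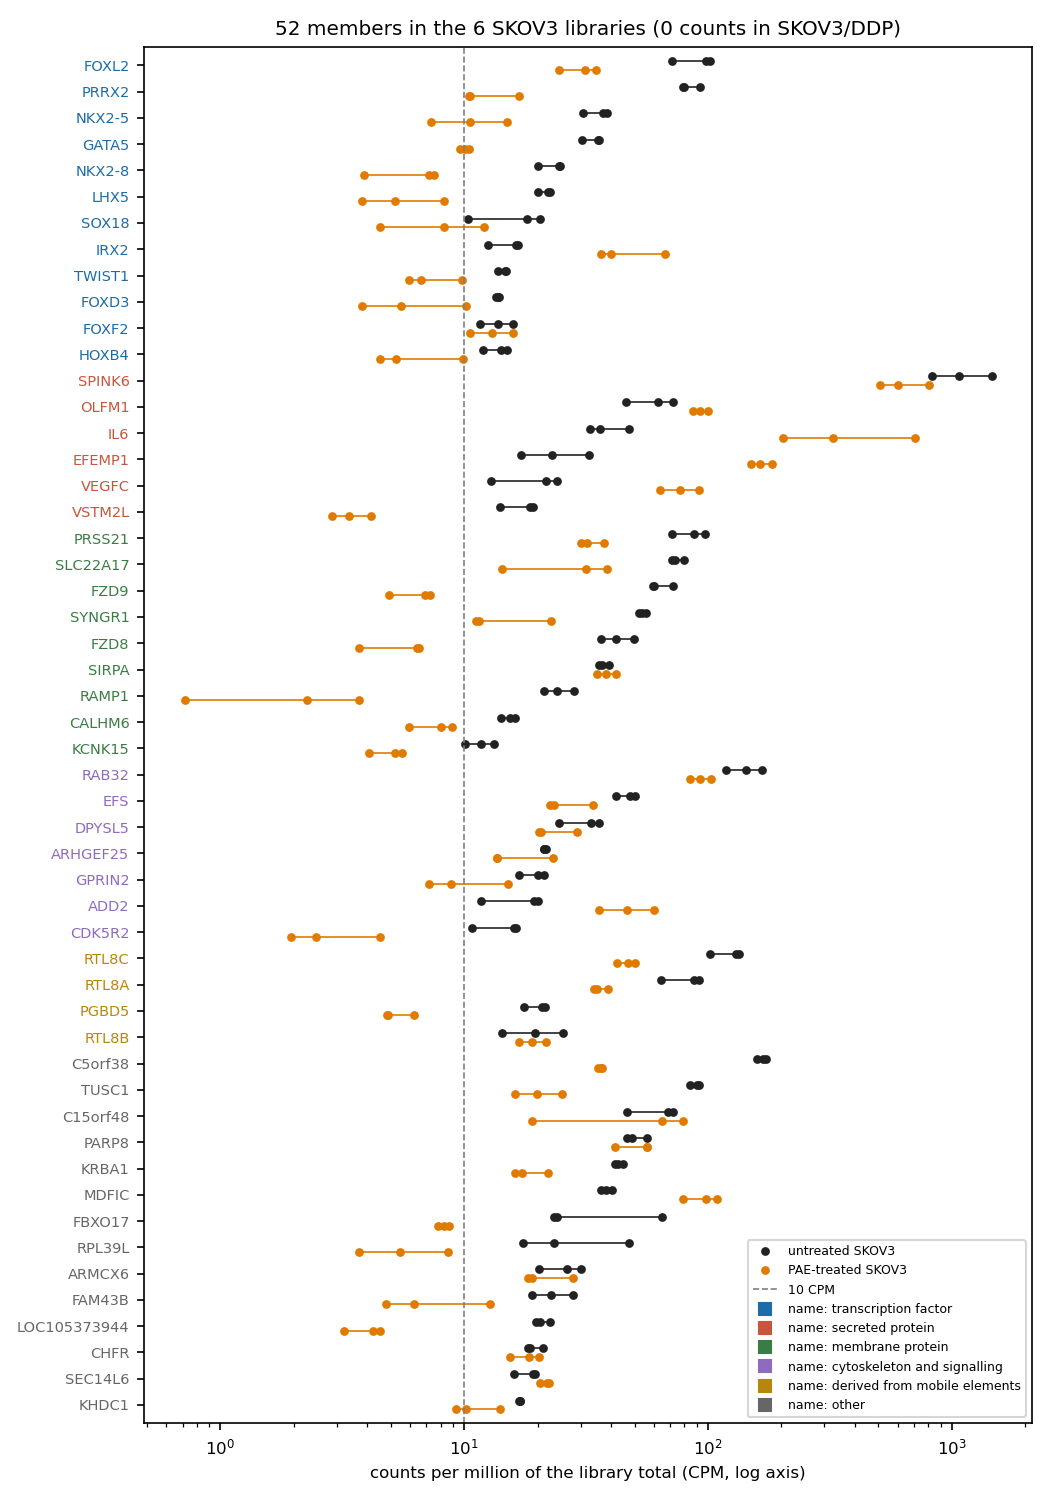
CPM of the library total (log axis) of 52 of the 53 members in the 3 untreated (black) and 3 PAE-treated (orange) SKOV3 libraries, 1 point per library, with lines from the lowest to the highest value and names coloured by role. SPINK6 stands highest, and the PAE-treated libraries of 34 members lie wholly below the untreated ones, while those of 8 members lie wholly above. Of all 17133 genes tested with PAE, 24.0% lie wholly below and 53.1% wholly above, and of the other 5508 protein-coding genes at 10 CPM in untreated SKOV3, 53.9% and 29.2%.

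Apart from the 14 members of varied or less certain role, the largest role among the members was that of transcription factor. In the annotation column of the files, 12 of the 53 (22.6%) carried a homeobox, forkhead, helix-loop-helix, HMG box or GATA zinc finger domain. The homeobox was found in 6 (PRRX2, NKX2-5, NKX2-8, LHX5, IRX2 and HOXB4) and the forkhead domain in 3 (FOXL2, FOXF2 and FOXD3), with TWIST1, SOX18 and GATA5 carrying the others. These domains were not set before the members were known, and each of them is carried by a member. The shares below are therefore a description, with no test. Such a domain was carried by 95 of the 5561 protein-coding genes at 10 CPM in untreated SKOV3 (1.71%), by 421 of all 19729 (2.13%) and by 2 of the 46 genes found only in SKOV3/DDP (4.35%). Put the other way, 12.6% of the 95 expressed genes with such a domain were members, and 0.750% of the 5466 without one. The 12 had a median GC content of 63.8%, above the 57.3% of the other 40 members with a value and the 57.7% of the 83 other expressed genes with such a domain. Among the 1731 expressed genes at or above the members' median GC content, 43 (2.48%) carried one of the domains, and among the 26 members there, 9 (34.6%) did.

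**Figure D2:**
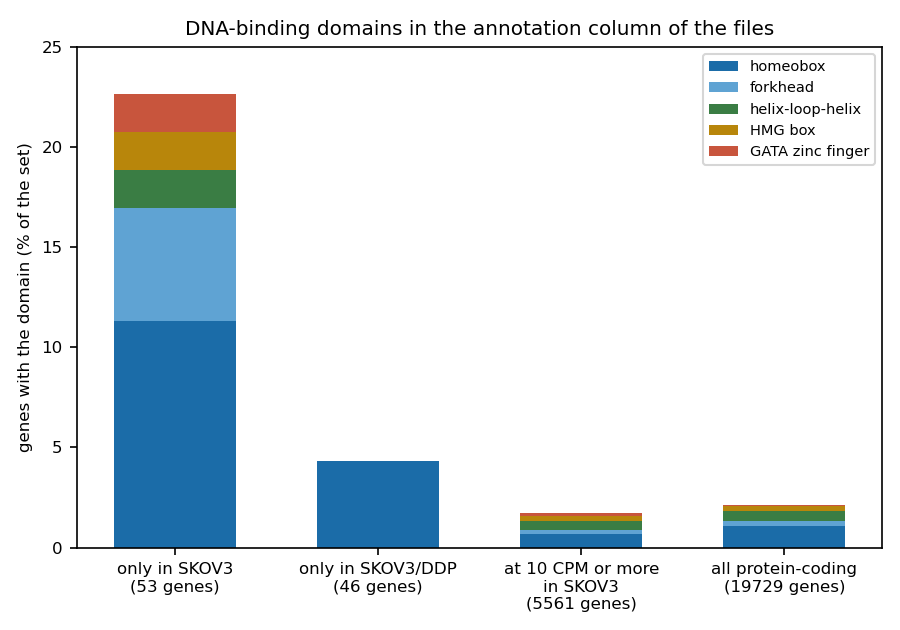
Share of genes (%) whose annotation names each of 5 DNA-binding domains, as stacked bars, in the genes detected only in SKOV3, those detected only in SKOV3/DDP, the protein-coding genes at 10 CPM or more in untreated SKOV3 and all protein-coding genes. The first bar reaches 22.6%, and the others 4.35%, 1.71% and 2.13%. The domains were not set before the members were known.

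FOXL2, a forkhead factor of ovarian granulosa cells, was the most abundant of the 12 in CPM. It had 98.6, 71.5 and 102 CPM in untreated SKOV3 and 34.9, 31.2 and 24.4 CPM in PAE-treated SKOV3. PRRX2, a homeobox factor of mesenchymal tissue, had 92.4, 79.5 and 79.0 CPM untreated and 10.5, 16.8 and 10.6 CPM with PAE. In both genes all 3 PAE-treated libraries were below all 3 untreated ones. Per kilobase, PRRX2 (59.8 CPM per kb) was above FOXL2 (31.1 CPM per kb).

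NKX2-5, a regulator of heart development, averaged 35.4 ± 4.05 CPM untreated and 10.98 ± 3.87 CPM with PAE (SD, n = 3). The zinc finger factor GATA5, known from heart and gut endoderm, averaged 33.9 ± 2.93 and 10.1 ± 0.447 CPM. NKX2-8 and the LIM homeobox gene LHX5 had 23.1 ± 2.56 and 21.6 ± 1.27 CPM untreated and 6.21 ± 2.01 and 5.78 ± 2.29 CPM with PAE. TWIST1, a helix-loop-helix factor of mesenchymal cells, had 13.8, 14.6 and 14.9 CPM untreated and 6.66, 9.78 and 5.96 CPM with PAE. The 4 remaining members near the limit were SOX18 (16.3 CPM), a factor of endothelial cells, the neural crest factor FOXD3 (13.7 CPM), the mesenchymal factor FOXF2 (13.7 CPM) and HOXB4 (13.7 CPM). The libraries of the untreated and PAE-treated groups overlapped for SOX18 and FOXF2 and did not for FOXD3 and HOXB4.

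IRX2 was the 1 transcription factor with the opposite order. It had 16.3, 12.6 and 16.6 CPM untreated and 66.4, 40.2 and 36.5 CPM with PAE. Its neighbour C5orf38, which is read in the other direction from a start 216 bases away, had 173, 169 and 159 CPM untreated and 35.4, 36.6 and 36.6 CPM with PAE. So the IRX2 libraries with PAE lay above the untreated ones, and those of C5orf38 lay below. Per kilobase, C5orf38 was at 31.2 and IRX2 at 1.60 CPM in untreated SKOV3. On its other side C5orf38 neighbours IRX1, 837254 bases away, which had 0 counts in SKOV3 and SKOV3/DDP, treated or not.

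Promoter sequences of 300 bases (250 before and 50 after the start) were taken from RefSeq on GRCh38.p14. They matched 36 of the 53 members (67.9%), which is under the 80% set for a summary, so no share over the members is given. The 5 shown belong to the most abundant member (SPINK6), the shared start region of C5orf38 and IRX2, the most abundant transcription factor (FOXL2), and a pair of members that stand far apart with PAE (IL6 and FZD9). CpG dinucleotides are in capitals, and each sequence runs 5′ to 3′ on the strand of its gene.
SPINK6: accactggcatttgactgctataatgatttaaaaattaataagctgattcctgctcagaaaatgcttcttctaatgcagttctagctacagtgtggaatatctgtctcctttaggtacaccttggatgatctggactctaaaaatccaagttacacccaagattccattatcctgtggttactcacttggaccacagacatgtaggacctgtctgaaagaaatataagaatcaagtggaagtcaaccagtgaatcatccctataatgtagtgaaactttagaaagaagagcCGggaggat
C5orf38: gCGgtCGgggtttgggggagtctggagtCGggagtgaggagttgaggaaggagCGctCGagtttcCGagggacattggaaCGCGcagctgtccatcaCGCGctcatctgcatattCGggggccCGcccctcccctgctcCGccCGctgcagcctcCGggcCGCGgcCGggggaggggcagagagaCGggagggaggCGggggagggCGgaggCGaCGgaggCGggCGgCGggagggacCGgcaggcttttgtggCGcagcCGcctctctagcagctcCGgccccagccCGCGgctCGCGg
FOXL2: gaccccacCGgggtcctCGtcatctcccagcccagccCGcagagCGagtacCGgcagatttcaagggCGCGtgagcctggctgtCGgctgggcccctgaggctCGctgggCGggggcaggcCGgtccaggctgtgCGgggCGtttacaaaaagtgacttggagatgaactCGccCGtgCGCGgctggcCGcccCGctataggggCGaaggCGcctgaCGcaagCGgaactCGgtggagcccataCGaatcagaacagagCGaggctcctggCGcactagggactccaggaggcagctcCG
IL6: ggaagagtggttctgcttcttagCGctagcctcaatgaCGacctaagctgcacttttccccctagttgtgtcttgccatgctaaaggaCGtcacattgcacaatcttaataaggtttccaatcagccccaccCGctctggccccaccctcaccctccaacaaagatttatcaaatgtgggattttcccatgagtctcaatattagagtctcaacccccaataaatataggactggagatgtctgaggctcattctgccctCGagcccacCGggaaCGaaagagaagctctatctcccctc
FZD9: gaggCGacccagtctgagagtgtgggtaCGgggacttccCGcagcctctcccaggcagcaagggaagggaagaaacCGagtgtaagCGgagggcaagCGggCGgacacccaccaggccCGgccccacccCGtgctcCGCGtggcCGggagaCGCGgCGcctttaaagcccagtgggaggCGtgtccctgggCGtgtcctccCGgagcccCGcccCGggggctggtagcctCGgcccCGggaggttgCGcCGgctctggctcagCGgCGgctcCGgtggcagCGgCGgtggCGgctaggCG
The SPINK6 window (chr5:148202528-148202827, plus strand) held 1 CpG and had 39.0% GC. The C5orf38 window (chr5:2751643-2751942, plus strand) held 34 CpGs, and the IRX2 window (chr5:2751628-2751927, minus strand) covers nearly the same bases and also held 34. The FOXL2 window (chr3:138947088-138947387, minus strand) held 28 CpGs and the FZD9 window (chr7:73433528-73433827, plus strand) 31. The IL6 window (chr7:22726950-22727249, plus strand) held 7 CpGs, and its RefSeq start lies 1311 bases from the 5′ end of the gene in the files. The median was 14 CpGs over all 27305 promoters of the table and 28 over the 4602 of protein-coding genes at 10 CPM in untreated SKOV3, so the windows of C5orf38, IRX2, FOXL2 and FZD9 lay at or above the median of the expressed genes. Both strands were searched for 4 motifs that do not contain one another. The TATA box was spelled TATAAA and was present in 12.01% of all promoters and 4.65% of those of the expressed genes. The GC box was spelled GGGCGG and was present in 44.5% and 76.5%. The AP-1 motif was spelled TGANTCA and was present in 7.72% and 4.13%. The TEAD motif was spelled GGAATG and was present in 14.07% and 9.95%. SPINK6 matched only the AP-1 motif. C5orf38, FOXL2 and FZD9 matched only the GC box, and IL6 matched none of the 4. A match is a run of letters and does not show that a factor binds.

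Among the 7 secreted proteins, 4 had all PAE-treated libraries above the untreated ones and 3 had them below, beside 29.2% and 53.9% of the other 5508 genes at 10 CPM in untreated SKOV3 and 53.1% and 24.0% of all genes tested. With 7 genes, these counts are given as a description. SPINK6 had 833, 1456 and 1074 CPM untreated and 508, 806 and 601 CPM with PAE. All 3 PAE-treated libraries were below the untreated ones, which spread with an SD of 314 CPM. IL6, an inflammatory cytokine, had 32.9, 36.0 and 47.6 CPM untreated and 203, 709 and 325 CPM with PAE. The PAE-treated IL6 libraries were all higher and also spread widely (SD 264 CPM).

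EFEMP1 (fibulin-3), a glycoprotein of elastic matrix, had 32.5, 17.05 and 22.9 CPM untreated and 150, 183 and 164 CPM with PAE. VEGFC, a growth factor of lymphatic vessels, had 24.1, 12.9 and 21.7 CPM untreated and 63.5, 91.8 and 77.0 CPM with PAE. OLFM1, a secreted olfactomedin-domain glycoprotein, had 72.1, 46.3 and 62.6 CPM untreated and 93.1, 87.1 and 100.3 CPM with PAE. Groups did not overlap in these 3 genes on the scale of CPM of the library total. VSTM2L, a small secreted protein, averaged 17.3 ± 2.78 CPM untreated and 3.47 ± 0.638 CPM with PAE (SD, n = 3).

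The 9 membrane proteins included 2 Frizzled receptors, which bind Wnt ligands. FZD9 had 60.0, 59.8 and 71.9 CPM untreated and 6.93, 7.24 and 4.93 CPM with PAE. FZD8 had 41.8, 36.6 and 49.9 CPM untreated and 6.38, 6.498 and 3.69 CPM with PAE. RAMP1, which associates with the calcitonin receptor-like receptor to form the receptor of CGRP, had 24.1, 28.2 and 21.3 CPM untreated and 2.26, 3.71 and 0.713 CPM with PAE. In these 3 receptor genes the PAE-treated libraries lay far below the untreated ones, and RAMP1 had the lowest ratio of all members.

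The GPI-anchored serine protease PRSS21 (testisin) averaged 85.5 ± 13.5 CPM untreated and 33.1 ± 3.77 CPM with PAE. SLC22A17, a receptor of lipocalin-2, averaged 74.7 ± 4.73 and 28.2 ± 12.5 CPM, and the vesicle protein SYNGR1 53.8 ± 1.84 and 15.1 ± 6.60 CPM. CALHM6, a channel family protein, and the potassium channel gene KCNK15 averaged 15.2 and 11.7 CPM untreated and 7.63 and 4.96 CPM with PAE. SIRPA, the inhibitory receptor for CD47 known from macrophages, was the exception in CPM of the library total. It had 39.1, 35.8 and 36.6 CPM untreated and 38.1, 41.9 and 35.1 CPM with PAE, so that the groups overlapped.

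Of the 7 members of the cytoskeleton and signalling, RAB32 was the most abundant in CPM, at 119, 167 and 143 CPM untreated and 84.1, 92.8 and 103 CPM with PAE. EFS, a docking protein of Src kinases, averaged 46.7 ± 4.27 and 26.5 ± 6.20 CPM, and its 3 PAE-treated libraries were below the untreated ones. ADD2 (beta-adducin), which joins spectrin to actin, had 20.1, 11.7 and 19.3 CPM untreated and 35.7, 60.1 and 46.3 CPM with PAE, all higher. CDK5R2, a neuronal activator of CDK5, had 16.4, 10.7 and 16.0 CPM untreated and 2.47, 4.52 and 1.94 CPM with PAE, all lower. The remaining genes of this role were chosen for naming after their values were seen. They were DPYSL5, a collapsin response mediator (31.1 CPM untreated and 23.4 CPM with PAE), the guanine nucleotide exchange factor ARHGEF25 (21.4 and 16.8 CPM) and GPRIN2 (19.4 and 10.4 CPM). DPYSL5 and ARHGEF25 overlapped between the groups.

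The members also included 4 genes that descend from mobile elements. RTL8A, RTL8B and RTL8C derive from the gag gene of a retrotransposon and lie side by side on the X chromosome, and PGBD5 derives from a piggyBac transposase. RTL8C had 134, 102 and 130 CPM untreated and 50.1, 47.0 and 42.3 CPM with PAE. RTL8A had 91.9, 63.9 and 87.6 CPM untreated and 34.0, 35.0 and 38.8 CPM with PAE, and both were lower in every PAE-treated library. RTL8B overlapped, with means of 19.8 ± 5.63 and 19.2 ± 2.39 CPM (SD, n = 3). The 3 genes are near-identical copies, so the division of reads between them is uncertain, while their joint absence from SKOV3/DDP does not depend on it. PGBD5 had 21.4, 20.9 and 17.7 CPM untreated and 4.87, 4.83 and 6.22 CPM with PAE, all lower.

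The RTL8 genes formed the middle of a run of 5 successive protein-coding genes with 0 counts in SKOV3/DDP, from SMIM10 to SMIM10L2B (chrX:134990991-135098712, GRCh38). The outer genes were detected in SKOV3 at 1.57 CPM (SMIM10) and 3.32 CPM (SMIM10L2B), below the limit for members. SMIM10 was at 13.5 CPM and SMIM10L2B at 1.12 CPM with PAE. A longer run on the X chromosome, of 16 genes with 0 counts in SKOV3/DDP (101408222-102516739), held ARMCX6 as its 1 member. In that run 8 genes had a count in SKOV3, untreated or treated. ARMCX3, beside ARMCX6, was at 7.23 CPM untreated and 61.5 CPM with PAE. Elsewhere, members touched another member at 2 sites. IRX2 and C5orf38 are described above, and SLC22A17 and EFS lie 1411 bases apart on chromosome 14 (SLC22A17 at 23346304-23354991, EFS at 23356402-23365207, both on the minus strand). PABPN1, beside SLC22A17, was at 13.7 CPM in untreated SKOV3/DDP, and IL25, beside EFS, had 0 counts there.

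**Figure D3:**
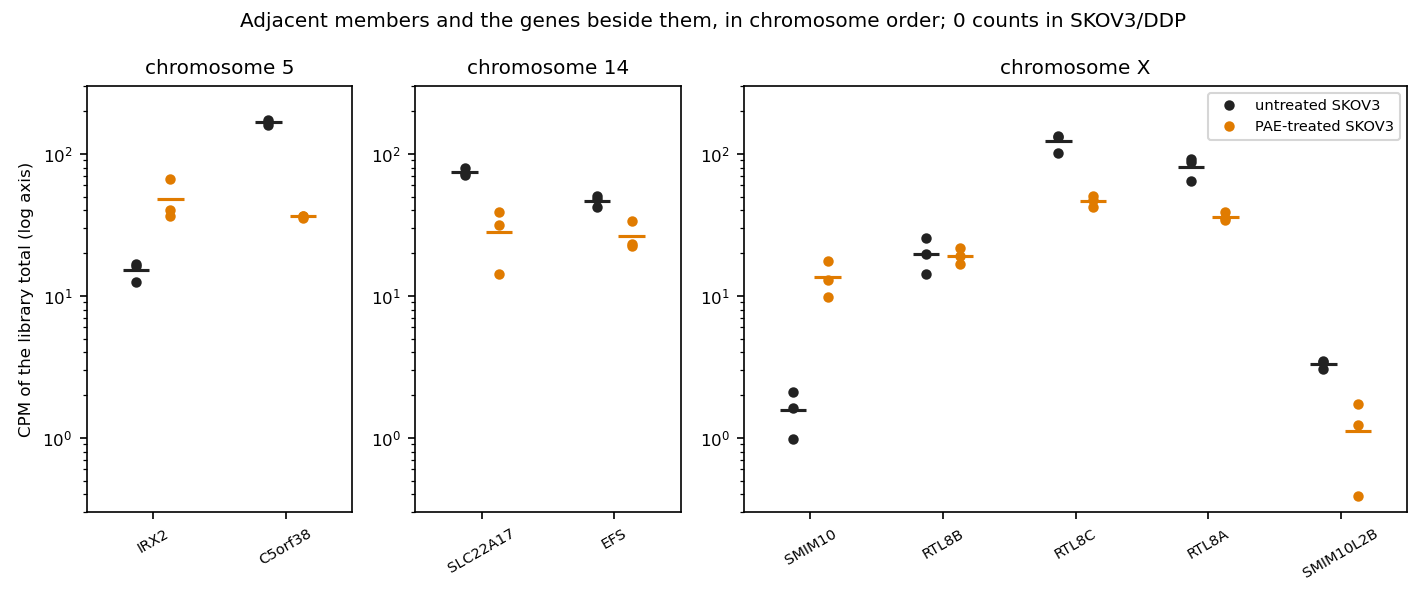
CPM of the library total (log axis) of members that lie next to each other on chromosomes 5, 14 and X, with SMIM10 and SMIM10L2B beside the RTL8 genes, in 3 untreated (black) and 3 PAE-treated (orange) SKOV3 libraries. Points are libraries and short bars are means. IRX2 and C5orf38 move in opposite directions with PAE, and all genes shown had 0 counts in SKOV3/DDP.

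Most members had no other member as a direct neighbour. Of the 53, 7 had another member as a direct neighbour among protein-coding genes. Both direct neighbours had counts in SKOV3/DDP for 27 members, at least 1 neighbour was at 1 CPM or more there for 31, both were for 12, and both neighbours had 0 counts for 11. The neighbours of other genes were not counted, so these numbers describe the members only. Members lay on 18 chromosomes, with most (6) on chromosome 2. Of the protein-coding genes at 10 CPM in untreated SKOV3, 287 lay on chromosome 2, and chromosome 1 held 594, of which 4 were members. Some counts cannot be separated from an overlapping gene, since the strand of counting is not given in the sources used here. HOXB4 overlaps HOXB3, which was at 204 CPM in untreated SKOV3/DDP, where HOXB4 had 0 counts. SOX18 overlaps TCEA2 (162 CPM in untreated SKOV3 and 0.191 CPM in SKOV3/DDP), KCNK15 overlaps RIMS4 (147 and 0.0833 CPM) and FOXD3 overlaps FOXD3-AS1 (24.6 and 0 CPM).

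The remaining 14 members have varied or less certain roles. After C5orf38, the most abundant in CPM was TUSC1, named as a tumour suppressor candidate, with 91.9, 90.4 and 84.4 CPM untreated and 16.1, 19.9 and 25.3 CPM with PAE. C15orf48, a mitochondrial protein of the cytochrome c oxidase, had 46.7, 68.6 and 71.7 CPM untreated and 64.8, 79.3 and 19.0 CPM with PAE, so the groups overlapped. PARP8, a mono-ADP-ribosyltransferase, had means of 50.6 and 51.4 CPM and overlapped too in CPM of the library total. KRBA1 averaged 43.1 CPM untreated and 18.5 CPM with PAE. MDFIC, an inhibitor of MyoD family factors, had 40.3, 36.6 and 38.3 CPM untreated and 98.3, 79.2 and 108.6 CPM with PAE, all higher on this scale. LOC105373944, a gene of unknown role that starts 3500 bases from the homeobox gene GBX2, had 19.7, 22.5 and 20.5 CPM untreated and 3.23, 4.21 and 4.54 CPM with PAE, all lower.

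The others were named after their values were seen. FBXO17, an F-box adaptor of ubiquitin ligases, had 64.8, 23.5 and 24.1 CPM in untreated SKOV3, with replicate 1 far above the others, and 8.65, 8.29 and 7.84 CPM with PAE. RPL39L, a copy of a ribosomal protein gene whose reads may be shared with its parent gene, had 23.3, 47.4 and 17.5 CPM untreated and 3.71, 8.60 and 5.44 CPM with PAE. In both genes the PAE-treated libraries were below the untreated ones. ARMCX6 (25.6 CPM untreated and 21.8 CPM with PAE) and CHFR, a ubiquitin ligase of the mitotic checkpoint (19.3 and 18.1 CPM), overlapped between the groups. FAM43B (23.2 and 7.95 CPM) and KHDC1 (16.9 and 11.1 CPM) were lower in every PAE-treated library, and SEC14L6, of the SEC14 lipid-transfer family (18.3 and 21.5 CPM), was higher in each on this scale. The fits with TMM scaling and with the GC and length trend removed, below, called SEC14L6 lower.

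The gene families set beside the members are given as a description. Members made up 0.953% of the 5561 protein-coding genes at 10 CPM in each untreated SKOV3 library, so 0 or 1 member in a family says little. Of 39 genes of the HOX clusters, 12 reached 10 CPM in each untreated SKOV3 library, 4 had 0 counts in SKOV3/DDP and 1 (HOXB4) was a member. Of 19 SOX genes, 3 reached that level and 1 (SOX18) was a member, and of 389 solute carriers, 108 did and 1 (SLC22A17) was. Of 40 matrix and mesenchymal genes, 16 reached 10 CPM and TWIST1 was the 1 member. No member was a zinc finger gene of the ZNF type (99 of 570 at 10 CPM), a serpin (5 of 34), a matrix metalloproteinase (6 of 25), a chemokine (2 of 42), an MHC class II gene (2 of 17), a claudin (2 of 26), an adhesion G protein-coupled receptor (2 of 29) or a clustered protocadherin (1 of 53). None of 101 cancer-testis antigens or 19 GABA-A receptor subunits reached 10 CPM in untreated SKOV3.

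The difference between PAE-treated and untreated SKOV3 was estimated in 1 fit of all 12 libraries with the quasi-likelihood test of edgeR, and p-values were adjusted by Benjamini-Hochberg over 17133 genes. The untreated libraries of this contrast are those that chose the members at 10 CPM or more, so the calls are given as a description of the members, without their p-values, beside the shares of other genes. Of the 53 members, 4 were called higher and 46 lower at an adjusted p under 0.05. Of all genes tested, 75.3% were called, 42.6% as higher and 32.7% as lower. Of the 5508 other protein-coding genes that met the same 10 CPM limit, 17.4% were called higher and 68.1% lower. On CPM of the library total, 8 members had all PAE-treated libraries above and 35 below the untreated ones, where 53.1% and 24.0% of all genes did, and 29.2% and 53.9% of the 5508. The median log2 fold change with TMM scaling was −1.95 over the members, −1.57 over the 5508 genes and 0.48 over all genes tested. Much of the distance between the members and all genes was thus shared by genes chosen at the same level. Scaling by library size, which moves all genes by nearly the same amount, gave −1.08, −0.69 and 1.35.

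The genes called higher were IL6 (log2 fold change 2.52 ± 0.40 SE), EFEMP1 (1.89 ± 0.26), VEGFC (1.10 ± 0.28) and IRX2 (0.78 ± 0.30). The value of IL6 was 1.89 without SKOV3_PAE replicate 2, its highest library. The lowest log2 fold changes were those of RAMP1 (−4.33 ± 0.51), FZD9 (−4.20 ± 0.27), FZD8 (−3.83 ± 0.31), PRRX2 (−3.61 ± 0.27) and LOC105373944 (−3.27 ± 0.30). ADD2 (0.59 ± 0.29), MDFIC (0.43 ± 0.21) and OLFM1 (−0.25 ± 0.22) were not called. IRX2 was no longer called without any 1 of SKOV3 replicates 1, 2 and 3 or SKOV3_PAE replicate 1.

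Base composition moved with these differences. The Spearman correlation of the log2 fold change was −0.79 with GC content over 15090 genes and −0.62 over 52 members, given as a description of values that share the same 6 libraries. When each library's dependence on GC content and on gene length was smoothed and removed, 25 of 52 members were called, 9 higher and 16 lower, and the median log2 fold change of the members was −0.19, beside −0.37 over 5505 of the other genes at 10 CPM and 0.10 over all 15090 genes. In that fit 25.3% of all genes were called higher and 24.0% lower, and 16.1% and 43.1% of the 5505. Of the 50 members called before, 17 kept their call and sign, 6 were called with the other sign (ARHGEF25, EFS, FOXF2, RTL8A, RTL8C and SOX18), 26 were not called, and LOC105373944 had no GC value. The calls of IL6 (0.80 ± 0.43), EFEMP1 (0.20 ± 0.19) and PRRX2 (−0.41 ± 0.18) ended in this fit. VEGFC (1.65 ± 0.26), IRX2 (2.20 ± 0.33), FZD9 (−1.46 ± 0.21), FZD8 (−1.62 ± 0.25) and RAMP1 (−1.83 ± 0.39) kept theirs. PARP8, whose groups overlapped in CPM, was called lower with TMM scaling (−0.86) and here (−4.39), the lowest value of the 52 members. SEC14L6, higher with PAE in CPM, was likewise called lower in both fits (−0.64 and −0.89). MDFIC (−2.62, lower) and OLFM1 (1.59, higher) were not called with TMM scaling and were called here.

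**Figure D4:**
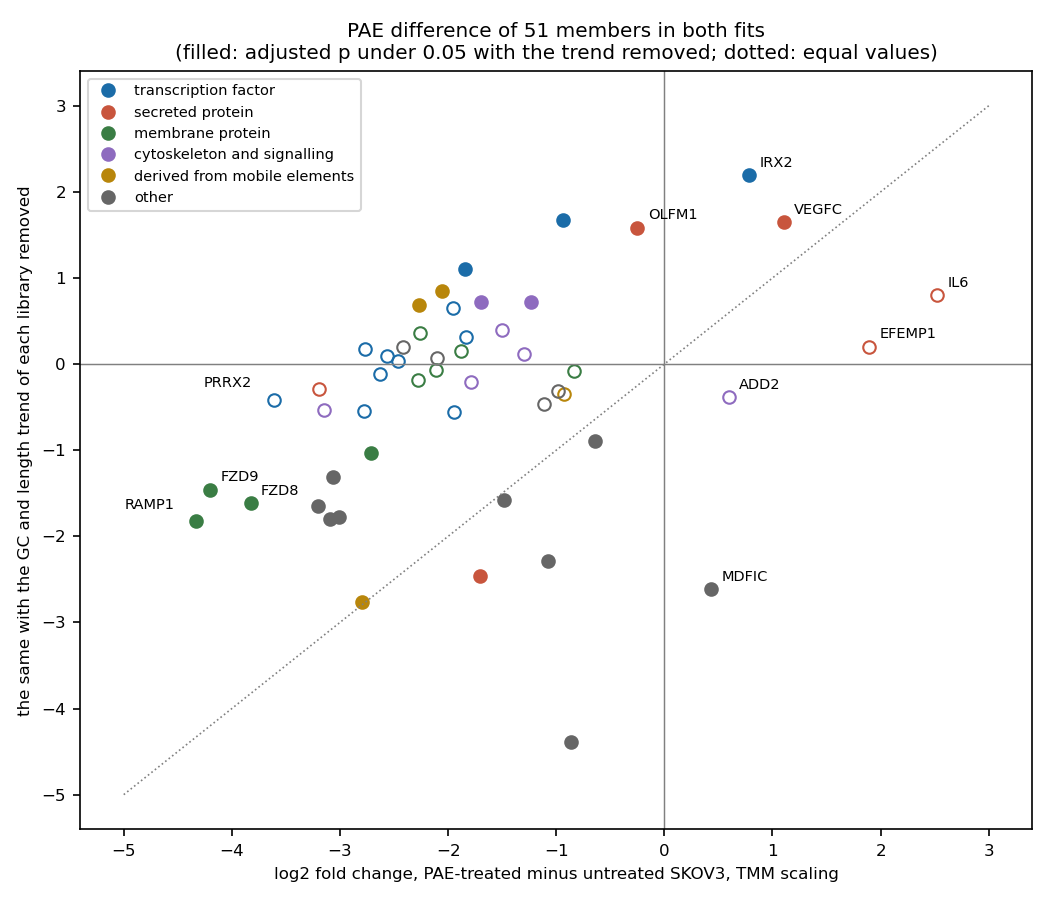
Log2 fold change of 51 members, PAE-treated minus untreated SKOV3, in the fit with TMM scaling (x axis) and with the GC and length trend of each library removed (y axis), 1 point per gene coloured by role. Filled points had an adjusted p under 0.05 on the y axis. Most points left of 0 lie nearer to 0 on the y axis. FZD8, FZD9 and RAMP1 stay below −1 on both, as do PGBD5, SPINK6, C5orf38 and TUSC1 among others.

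The correction moved the roles unequally. With scaling by library size 52.9% of all genes were called higher and 22.4% lower, and 27.9% and 51.9% of the 5508 genes at 10 CPM. The counts of each role are small and are read only beside these shares and those of the fits above. Of the 12 transcription factors, 11 were called lower and 1 higher with TMM scaling, 10 and 1 with scaling by library size, and 0 and 3 (IRX2, FOXF2 and SOX18) with the trend removed. Of the 7 members of the cytoskeleton and signalling, 6 were lower and 0 higher with TMM scaling, 4 and 1 with library size scaling, and 0 and 2 with the trend removed. Of the 4 genes from mobile elements, 4 were lower with TMM scaling, 3 with library size scaling, and with the trend removed 1 was lower and 2 were higher. Of the 9 membrane proteins, 9, 8 and 4 were called lower in these 3 fits and 0 higher. With the trend removed, PRSS21 (0.36) and CALHM6 (0.15) were above 0 but not called. SIRPA (0.045) was so with library size scaling, and it was called lower with TMM scaling (−0.84). The 14 members of varied role had 13 called lower with TMM scaling, 7 lower and 1 higher with library size scaling, and 9 lower and 0 higher among the 13 fitted with the trend removed. Of the 7 secreted proteins, 3 were higher and 3 lower with TMM scaling, 4 and 3 with library size scaling and 2 and 2 with the trend removed. The share of the differences that follows from PAE and the share that follows from the composition of the untreated libraries cannot be told apart with these groups.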

How the data were processed

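Messenger RNA of both lines, with and without PAE, was captured on poly-T beads, and NEBNext Ultra libraries were prepared. For each of the 12 libraries the authors deposited gene counts as whole numbers, without normalization and with GRCh38 coordinates. The submitters' processing notes name HISAT2 2.0.5, StringTie 1.3.3b, DESeq2 and edgeR, with no role for each, and the strand of counting is not given in the sources used here. The 869 loci without a gene name (0.126% to 0.678% of the counts of a library) were left out.

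CPM are counts scaled to 1e6 of a library's total on named genes (14610008 to 18263479 counts on all rows, 46350 named genes). Per-kilobase values used the gene length in the files. The PAE comparison used filterByExpr, TMM factors and the quasi-likelihood test in edgeR 4.0.16 (R 4.3.3), in a fit of 4 groups with Benjamini-Hochberg adjustment at 0.05. Standard errors were derived from the fold change and the F statistic. GC content came from GENCODE 29 and was found for 88.1% of the genes tested. Its trend and that of gene length were fitted by splines with 5 degrees of freedom and passed as offsets. DESeq2 1.42.0 and the other alternatives were recomputed for each result. The fits were tested on simulated data. Figures were drawn with matplotlib 3.10.9.

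The members, roles and lists were chosen with earlier results of these data known. Named were the 20 members highest in untreated SKOV3, the 5 largest changes of each sign, the 5 highest and 5 lowest ratios, members of the lists, adjacent members, and the 3 genes nearest each limit on either side. Others were named after their values were seen. The domains were read from the annotation column and were not set in advance. No pair of libraries of a group agreed within sampling noise. The values of 1 member are not reported here.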

Additional observations from a re-analysis of the deposited data

How the results depend on the processing

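The number of genes detected only in SKOV3 was 31 with a minimum of 20 CPM and 93 when up to 3 counts were allowed in SKOV3/DDP, and 53 to 62 when 1 library was left out. Of the members, 52 reached 1 CPM in each PAE-treated library, and 30 to 32 reached 10 CPM when 1 was left out. With the GC and length trend removed, 25 members changed with PAE, 9 higher and 16 lower, and with scaling by library size 7 were higher. Leaving out 1 library gave 46 to 50 changed members, 3 to 5 higher and 43 to 45 lower. The replicate numbers did not pair the libraries, since correlations of same-numbered deviations lay between −0.31 and 0.20 over 11402 genes. With the replicate block 49 members changed, 4 higher and 45 lower. Of the named log2 fold changes, OLFM1 turned to 0.63 with library size scaling and 1.59 with the trend removed, and ADD2 (−0.38) and MDFIC (−2.62) turned with the trend removed. MDFIC was called lower and OLFM1 higher in the fit with the trend removed, and ADD2 was not called there. IRX2 was not called in the 6 SKOV3 libraries alone (0.68) or by DESeq2 (0.53). ADD2 and MDFIC were called with library size scaling (1.48 and 1.31), and MDFIC without SKOV3_PAE replicate 2 (0.56). The calls of IL6, EFEMP1 and PRRX2 ended with the trend removed (0.80, 0.20 and −0.41). The cause was not tested. The other 127 values of single genes and 49 counts kept their direction and side or stayed within 1.5 times. A count of 0 limits a level only to 0.0309 CPM.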

Other observations

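Some long noncoding genes that start near the members were also at 0 in SKOV3/DDP. Of 12 such genes within 5000 bases of a member's start, 10 had a count in untreated SKOV3, and 8 of these had 0 counts in SKOV3/DDP, as did 519 (13.6%) of the 3810 long noncoding genes with a count in untreated SKOV3. This difference was not tested, and 3 of the 8 had few counts in the 3 untreated SKOV3 libraries together, 1 for LOC107984088, 5 for LOC105376494 and 11 for IL6-AS1, so a count of 0 says little of them. FOXD3-AS1, on the opposite strand at FOXD3, was at 24.6 ± 6.68 CPM in untreated SKOV3 and 5.86 ± 2.12 CPM with PAE (SD, n = 3). LOC105374880, which starts 128 bases from FOXF2, was at 3.32 ± 0.302 and 0.454 ± 0.394 CPM. LHX5-AS1, which starts 132 bases from LHX5, was at 0.696 ± 0.103 and 0.151 ± 0.0981 CPM. KCNK15-AS1 was counted in both lines, with 53 counts in untreated SKOV3 and 22 in SKOV3/DDP. The protein-coding gene FOXL2NB, which starts 80 bases from FOXL2, was at 7.90 ± 0.780 CPM in untreated SKOV3 and 29.7 ± 9.75 CPM with PAE, where FOXL2 was at 90.6 and 30.2 CPM, and FOXL2NB had 35 counts in SKOV3/DDP.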
